A study of Ginkgo biloba with 2 samples.

Results

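The sequences of the plastid methylerythritol phosphate (MEP) pathway were followed in female trees of *Ginkgo biloba*, in mature ovules and in leaves that had fully expanded, both collected in April 2012. One RNA-seq library was read per tissue, from total RNA, and the labels name no treatment, genotype or number of trees. Members were the reference sequences whose closest BLAST match among nr proteins carried the name or abbreviation of a pathway enzyme, and 24 of the 64515 sequences in the tables were members. The rule reads names alone and no expression value, although the pathway was picked with earlier results of these data known. With 1 library per tissue there is no replicate check, so each difference below compares 2 libraries, and each interval covers counting error only.

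The MEP pathway makes isopentenyl and dimethylallyl diphosphate, the building blocks of isoprenoids, from pyruvate and glyceraldehyde phosphate inside plastids. In leaves it supplies the carotenoids, the side chain of chlorophyll and plastid-derived hormones, and in ginkgo it is known as the source of the diterpenoid ginkgolides. Its enzymes act in the order DXS (1-deoxy-D-xylulose 5-phosphate synthase), DXR (1-deoxy-D-xylulose 5-phosphate reductoisomerase), MCT (which adds a cytidine group), CMK (the kinase), MDS (the cyclodiphosphate synthase), HDS (hydroxymethylbutenyl diphosphate synthase) and HDR (the reductase). A separate route through mevalonate makes the same building blocks outside plastids.

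Levels were low. The ovule library held 4581771 uniquely mapped reads and the leaf library 4245222, of which the 24 members took 513 and 817. RPKM, the reads per kilobase of sequence and 1000000 mapped reads, ran up to 15.9 among members in ovule (median 2.27) and up to 29.2 in leaf (median 3.28). Over all sequences whose RPKM reached 1 in either library, the medians were 3.21 in ovule and 3.59 in leaf. Beside these sequences the members had a median percentile of 43.2 in ovule and 47.5 in leaf. The member medians and percentiles are over all 24, including 4 whose RPKM reached 1 in neither library. They are therefore not like for like with that background and do not show that members lay below it. Reads lay in both libraries for 20 members, in ovule alone for 2 and in leaf alone for 2, and 9 members had fewer than 10 reads over both libraries. Assembled contigs made up 18 members and sequences taken from GenBank 6, with lengths of 156 to 2865 bases. The deposited gene ontology terms placed 16 of the 24 in plastids, 13 of them in the chloroplast stroma, and 4 in mitochondria. The term for the non-mevalonate pathway was attached to 10 of the 24, although 271 sequences of the tables carried it.

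The reads covered only a small part of most members. Reads were 49 bases long, and 283 leaf reads on the HDR contig CL6601.Contig1 covered 465 of its 2285 bases, so that each covered base was read 29.8 times on average. The DXR contig Unigene19516 had 16.3% of its bases covered by 146 ovule reads and 18.2% by 64 leaf reads. By contrast, 26 ovule reads on the DXS contig Unigene13639, whose best hit is a protein of *Amomum villosum*, covered 80.8%. The split followed the species of the best hit. Among members with at least 20 ovule reads, the 6 with a *Ginkgo biloba* hit had 9.34% to 25.03% covered and the 2 with another hit 76.6% to 80.8%. Exceptions were the HDS contigs Unigene27239 and Unigene10941, described later, which have a ginkgo hit and had 55.06% and 55.32% covered in ovule and 73.92% and 72.04% in leaf. The same split held in the medians across the tables for described sequences of 1000 to 3000 bases with 50 to 200 reads. In ovule the median covered share was 24.02% for 16 sequences with a ginkgo hit and 77.3% for 3070 with another hit, and in leaf it was 28.7% for 27 and 77.8% for 3596. The counts are of uniquely mapped reads, and the reference holds contigs beside GenBank entries of the same genes, but whether this set the low coverage was not tested. Levels are therefore not compared between enzymes, and each ratio rests on the covered stretch.

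**Figure D1:**
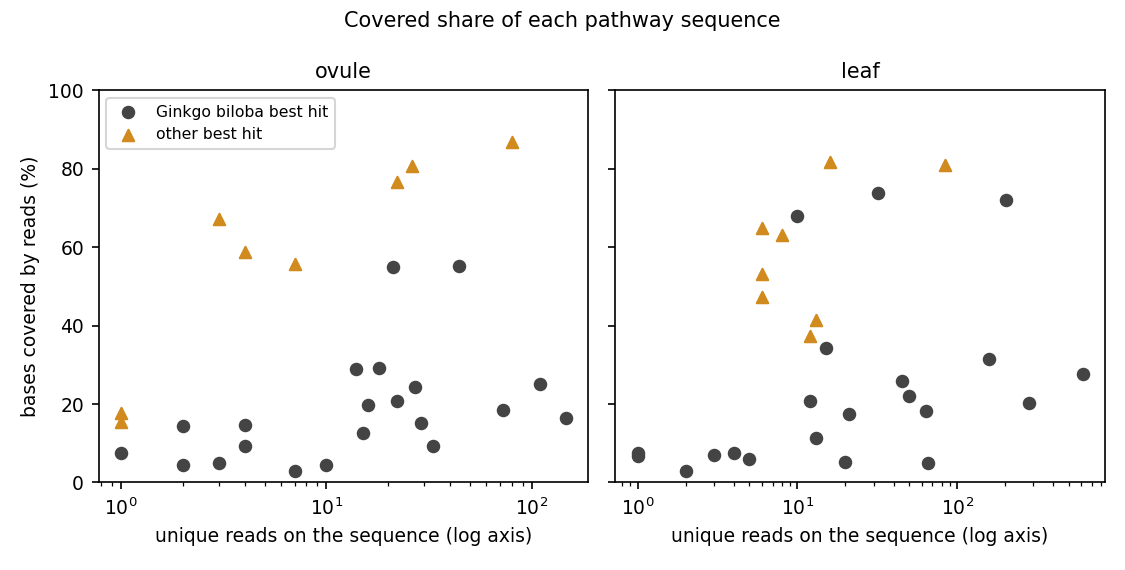
Share of each pathway sequence covered by reads (percent) against its number of unique reads (log axis) in ovule and leaf, for the 24 members and 7 further pathway sequences described later. Grey circles are sequences whose best hit is a ginkgo protein and orange triangles those with a best hit in another species; with many reads most circles stay low, such as CL6601.Contig1 at 20.4% with 283 leaf reads, while Unigene13640 reaches 86.9% with 80 ovule reads.

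As a whole the pathway had fewer reads in ovule, but this did not hold for every enzyme. Over all members the ovule-to-leaf ratio of reads per 1000000 was 0.582 (95% counting interval, 0.520 to 0.650). Without CL6601.Contig1, the member with the most reads, it was 0.840 (0.741 to 0.952). Of the 20 members whose RPKM reached 1 in ovule, in leaf or in both, ovule was at least 2-fold higher for 4, leaf for 9, and 7 differed by less, on a scale of log2((RPKM in ovule + 0.5)/(RPKM in leaf + 0.5)). These shares of 20% and 45% stand beside 27.3% and 35.1% of all 56768 sequences past the same filter. Calls whose counting interval also excluded 1 numbered 2 toward ovule and 5 toward leaf, against 17.3% and 13.6% of all sequences. The median log2 ratio was -0.52 over the 20 members and -0.10 over all sequences. With TMM scaling, a rescaling of the libraries that discounts extreme sequences, it was -0.76 over 21 members and -0.24 over all sequences. Among 744 other sequences with the chloroplast stroma term, ovule was higher for 28.4% and leaf for 29.7%, and the median was -0.03, while the ratio of their summed reads was 0.659 (0.655 to 0.662). With an RPKM of at least 5 in either library, 1 of 11 members was higher in ovule and 7 in leaf, beside 36.2% and 23.6% of all 30227 sequences past that filter. The members thus stood near the background in the first count and more toward leaf than the background with the interval and under the stricter filter.

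**Figure D2:**
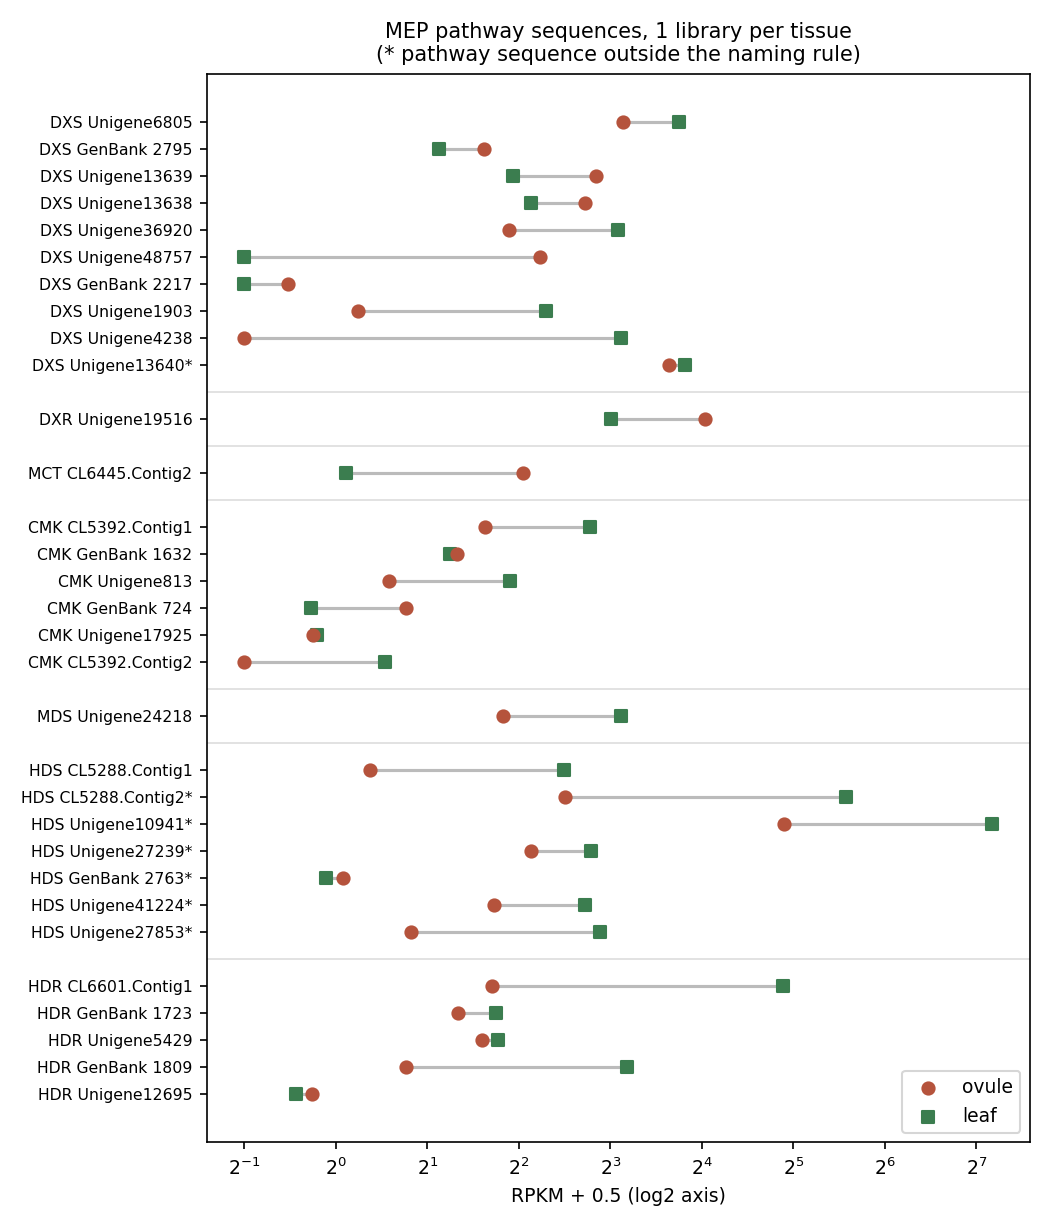
RPKM + 0.5 (log2 axis) of each pathway sequence in the ovule library (red circles) and the leaf library (green squares), grouped by enzyme in pathway order; sequences from GenBank are labelled by their length in bases, and an asterisk marks the 7 sequences that the naming rule missed. DXR and MCT have the ovule point on the right, while MDS, most HDS sequences and CL6601.Contig1 have the leaf point far to the right.

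DXS, which joins pyruvate and glyceraldehyde phosphate at the entry of the pathway, was slightly lower in ovule as a sum, with copies that pointed both ways. Its 9 sequences had 203 reads in ovule and 231 in leaf, a ratio of 0.814 (0.671 to 0.987). Most of these lay on Unigene6805, whose best hit is a ginkgo DXS, with 109 ovule and 158 leaf reads, or RPKM values of 8.30 and 13.0. This contig was lower in ovule, at a ratio of 0.639 (0.496 to 0.821). Without it the remaining sequences had 94 and 73 reads, and the ratio turned to 1.19 (0.869 to 1.64). A GenBank entry of 2795 bases that shares the best hit of Unigene6805 had 33 and 20 reads, a ratio of 1.53 (0.852 to 2.81). The pair therefore lay on opposite sides of 1, the split of reads between them is uncertain, and only the contig had an interval that excluded 1.

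DXS also had copies that resemble proteins of other plants. Unigene13639 had 26 ovule and 12 leaf reads, a ratio of 2.01 (0.978 to 4.37). Unigene13638, with a castor bean (*Ricinus communis*) hit, had 22 and 13, a ratio of 1.57 (0.756 to 3.39). Both leaned to ovule with intervals that included 1. The contigs Unigene36920 and Unigene4238 matched the type II DXS of Norway spruce (*Picea abies*), a tree in which type II genes are known for induced resin terpenoid formation. Unigene36920 had 7 and 16 reads, a ratio of 0.405 (0.141 to 1.04). Unigene4238 had 0 and 6, so it was at least 2.16-fold higher in leaf when 3 reads are taken as the limit that a count of 0 allows, and its counting interval starts at 1.27-fold. Together the type II contigs had 7 and 22 reads, a ratio of 0.295 (0.106 to 0.715), and they made up 3.45% of the DXS reads in ovule (exact 95% interval, 1.40 to 6.98) and 9.52% in leaf (6.07 to 14.1). The other DXS sequences rested on very few reads. Unigene1903, with a yew (*Taxus*) hit, had 1 and 6, Unigene48757 had 3 and 0, and a GenBank entry of 2217 bases had 2 and 0, so no fold is given for the last pair.

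DXR, which turns deoxyxylulose phosphate into methylerythritol phosphate, was higher in ovule. Its only sequence, Unigene19516, had 146 ovule and 64 leaf reads, at RPKM values of 15.9 and 7.53. It stood at the 78.7th percentile of all sequences past the filter in ovule and at the 71.6th in leaf. The ratio was 2.11 (1.57 to 2.88). This lies at the edge of the 2-fold call: the log2 ratio was 1.03, and both TMM scaling (0.89) and TPM values (0.88; RPKM rescaled to the same sum in each library) put it below the threshold of 1.

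MCT, which attaches a cytidine group to methylerythritol phosphate, had the largest ratio toward ovule among members with reads in both libraries. Its only sequence, CL6445.Contig2, had 27 ovule and 4 leaf reads, at RPKM values of 3.63 and 0.581. The ratio was 6.25 (2.18 to 24.6). The interval is wide because only 4 leaf reads were seen, and they covered 121 bases against 394 in ovule.

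CMK, which phosphorylates the cytidine intermediate, had 6 sequences with 46 reads in ovule and 80 in leaf, a ratio of 0.533 (0.362 to 0.775). The only CMK sequence with an interval that excluded 1 belonged to the form that the descriptions call type 1. This contig, CL5392.Contig1, had 22 and 50 reads, at RPKM values of 2.59 and 6.35, a ratio of 0.408 (0.235 to 0.686). A second type 1 contig, CL5392.Contig2, had 0 and 3 reads, and no fold is given at that depth. The 4 type 2 sequences together had 24 and 27 reads, a ratio of 0.824 (0.455 to 1.48), which is not a difference detectable at this depth. They were a GenBank entry of 1632 bases with 15 and 13 reads, Unigene813 with 4 and 12, a GenBank entry of 724 bases with 4 and 1, and Unigene17925 with 1 and 1. Unigene813 was over the 2-fold line toward leaf and the shorter GenBank entry toward ovule, each with an interval that included 1.

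MDS, which closes the intermediate into a cyclic diphosphate, was lower in ovule. Unigene24218 had 18 ovule and 45 leaf reads, at RPKM values of 3.03 and 8.19, and a ratio of 0.371 (0.202 to 0.653). The covered stretch was of like size in both libraries, 379 bases in ovule and 334 in leaf.

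HDS, an iron-sulfur enzyme that opens the ring, entered the list with only 1 short contig, CL5288.Contig1, with 1 ovule and 6 leaf reads and a ratio of 0.154 (0.00336 to 1.27). Most HDS sequences escaped the naming rule because their descriptions spell the enzyme with an extra hyphen ("methyl-but"). The tables held 5 of these, and 2 further sequences whose description names no function but whose deposited gene ontology function names a pathway enzyme, Unigene41224 for HDS and Unigene13640 for DXS. These 7 were added after the descriptions had been read and are not counted as members. Over both libraries CL5288.Contig2 had more reads than any member, 72 in ovule and 610 in leaf, at RPKM values of 5.17 and 47.3, and a ratio of 0.109 (0.0844 to 0.140). Unigene10941, of 329 bases, had 44 and 201 reads, at RPKM values of 29.2 and 144, and a ratio of 0.203 (0.143 to 0.282). Both were several-fold lower in ovule. All 5 sequences with the extra hyphen share a best hit, so they may not be separate genes. Unigene27853 had 2 and 10 reads, a ratio of 0.185 (0.0197 to 0.870). For Unigene27239 the counts were 21 and 32, for Unigene41224 4 and 8, and for the GenBank entry of 2763 bases 7 and 5, each with an interval that included 1. All 7 HDS sequences together had 151 ovule and 872 leaf reads, a ratio of 0.160 (0.134 to 0.191), and of 0.279 (0.214 to 0.361) without CL5288.Contig2. Unigene13640, the added DXS sequence, was level at 80 and 84 reads, a ratio of 0.882 (0.641 to 1.21).

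HDR, the iron-sulfur enzyme that releases the final building blocks, had 5 sequences with 72 reads in ovule and 387 in leaf, a ratio of 0.172 (0.132 to 0.222). Most of the difference lay in the form named type 1. CL6601.Contig1 had 29 and 283 reads, at RPKM values of 2.77 and 29.2, and a ratio of 0.0949 (0.0624 to 0.139). It stood at the 47.3rd percentile of all sequences past the filter in ovule and at the 91.2nd in leaf. A GenBank entry of 1809 bases for the same type had 10 and 66 reads, a ratio of 0.140 (0.0644 to 0.275). Contig and entry pointed the same way with intervals that overlap. They share a best hit, so they may not be separate genes, and the split of reads between them is uncertain. The reads on the entry covered only 80 bases in ovule and 90 in leaf. Type 2 was near level. Its GenBank entry of 1723 bases had 16 and 21 reads and Unigene5429 had 14 and 15, together a ratio of 0.772 (0.459 to 1.29). Type 3, Unigene12695, had 3 and 2 reads. Type 1 made up 54.2% of HDR reads in ovule (42.0 to 66.0) and 90.2% in leaf (86.8 to 93.0), while type 2 made up 41.7% (30.2 to 53.9) and 9.30% (6.60 to 12.6). The ratio of both type 1 sequences together was 0.104 (0.0724 to 0.144), and its interval did not overlap that of type 2, although the difference between types was not tested for lack of replicates.

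**Figure D3:**
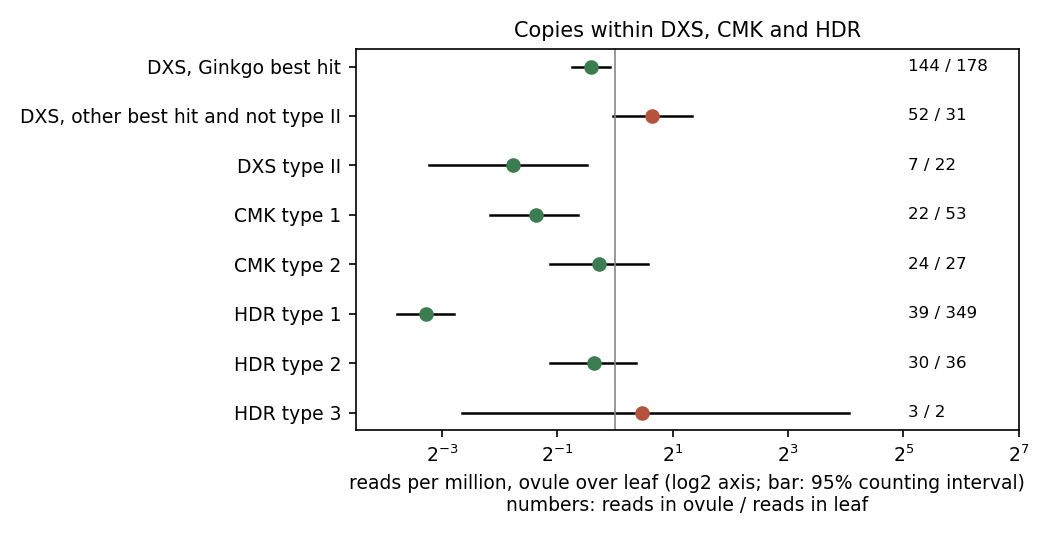
Ovule-to-leaf ratio of reads per 1000000 (log2 axis, with 95% counting intervals as bars) for the copies of DXS, CMK and HDR; red points lie above 1 and green points below, and the numbers at the right are reads in ovule and reads in leaf. HDR type 1 lies far below 1, at 0.104 with 39 and 349 reads, while HDR type 2 and CMK type 2 have intervals that include 1.

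The mix of enzymes among the pathway's reads differed between the libraries. DXS, DXR and MCT, a grouping made after the ratio of each enzyme had been seen, held 73.3% of the pathway's reads in ovule (69.2 to 77.1) and 36.6% in leaf (33.3 to 40.0), and CMK, MDS, HDS and HDR the other 26.7% (22.9 to 30.8) and 63.4% (60.0 to 66.7). Without CL6601.Contig1 the first group held 77.7% in ovule (73.7 to 81.3) and 56.0% in leaf (51.7 to 60.3). These shares do not depend on how the libraries are scaled against each other, but each rises where the others fall: the share of DXS was higher in ovule although its reads per 1000000 were lower. DXR took 28.5% in ovule and 7.83% in leaf, and HDR took 14.0% and 47.4%. DXS, with the most reads of any step in ovule, took 39.6% and 28.3%. CMK took 8.97% (6.64 to 11.8) and 9.79% (7.84 to 12.0). With the 7 added sequences, HDS and HDR together made up 30.01% of pathway reads in ovule (26.7 to 33.5) and 71.3% in leaf (69.1 to 73.4). DXS, DXR and MCT then had 61.4% (57.8 to 64.9) and 21.7% (19.8 to 23.7). A share of reads weighs long covered stretches more, so the contrast is between tissues for the same sequences and not between enzymes.

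**Figure D4:**
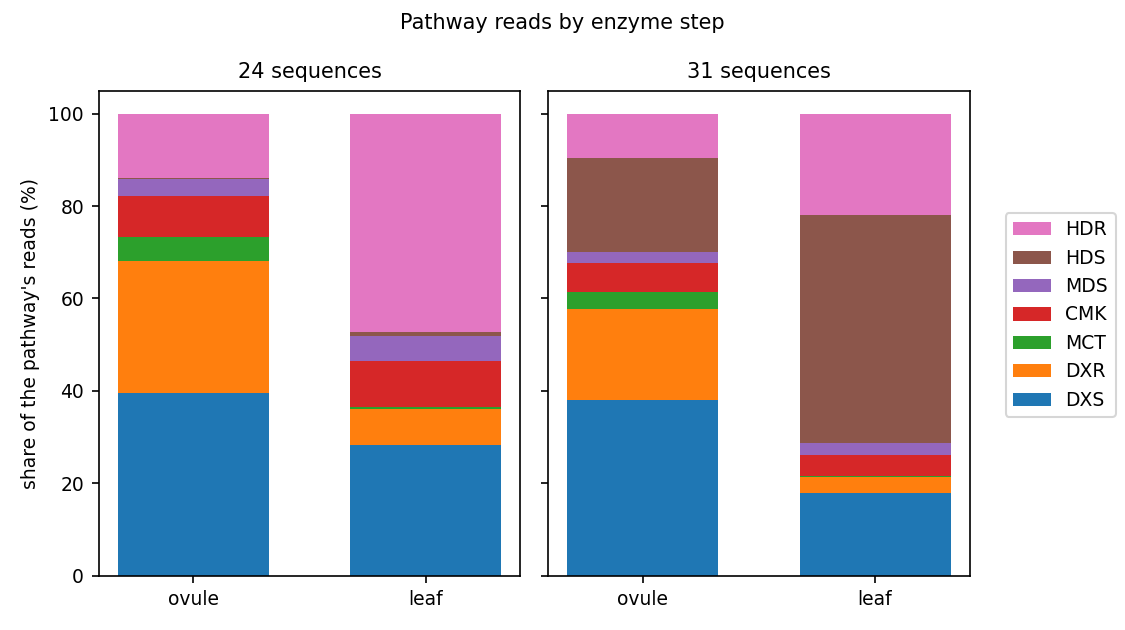
Share of all pathway reads (percent) that fell on each enzyme in the ovule and leaf libraries, for the 24 members and for the 31 sequences with those missed by the naming rule. HDR takes 14.0% of the members' reads in ovule and 47.4% in leaf, and in the larger set HDS takes 20.3% in ovule and 49.3% in leaf.

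Other isoprenoid genes were set beside the pathway. In the mevalonate route, ovule was higher for 7 of the 10 sequences past the filter and leaf for 3, beside 27.3% and 35.1% of all sequences, with a ratio of summed reads of 2.95 (2.61 to 3.34). The route was seen only in part. No sequence matched the names of acetoacetyl-CoA thiolase, mevalonate kinase or mevalonate diphosphate decarboxylase. Of the 10 sequences past the filter, 8 were copies of HMG-CoA reductase, which had 9 copies in all. HMG-CoA synthase, Unigene20259, had RPKM values of 63.1 (ovule) and 13.7 (leaf), and the most-read HMG-CoA reductase, CL1742.Contig3, had 21.4 and 2.97. The 3 sequences higher in leaf were all HMG-CoA reductase copies with intervals that excluded 1, and without CL1742.Contig3 the ratio over the other 8 copies was 1.25 (1.01 to 1.55). Phosphomevalonate kinase, Unigene992, had 11.9 and 4.41. Among later enzymes, no sequence matched the names of solanesyl diphosphate synthase, phytoene synthase or geranylgeranyl reductase. Those found that act on the products of both routes were near level. Isopentenyl diphosphate isomerase, Unigene7132, had RPKM values of 30.5 and 28.8. Geranylgeranyl diphosphate synthase, Unigene11357, had 31.9 and 28.6, and farnesyl diphosphate synthase, Unigene11782, had 2.15 and 1.81. An exception was geranyl diphosphate synthase, CL6734.Contig1, which makes the precursor of monoterpenes and was 3.88-fold higher in ovule (2.53 to 6.14), with 113 and 27 reads. A pair of plastid consumers of the products had leaf reads alone. Chlorophyll synthase, Unigene23759, which attaches the isoprenoid side chain of chlorophyll, had 0 and 15 reads, at least 5.40-fold higher in leaf with 3 reads as the limit (the counting interval starts at 3.87-fold), and levopimaradiene synthase, on the way to ginkgolides, had 0 and 28 over 3 sequences, at least 10.1-fold higher in leaf by the same limit (the interval starts at 7.66-fold). The electron donors of HDS and HDR were searched for by name, and few sequences matched. Ferredoxin-NADP reductase had 9 and 11 reads over 3 sequences, and the most-read of them is described as a root isozyme. The only ferredoxin match had 0 and 2 reads and is described as a 4Fe-4S ferredoxin, which need not be the plastid donor. These reads are too few for a direction and do not give the level of the donors.

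**Figure D5:**
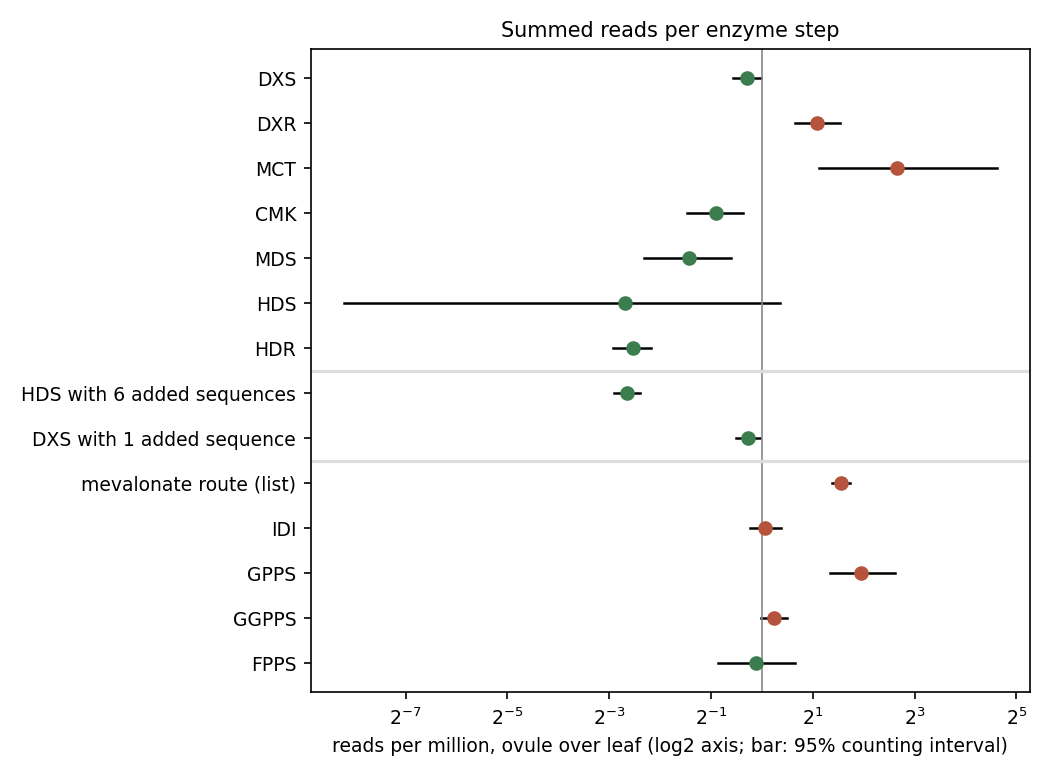
Ovule-to-leaf ratio of reads per 1000000 (log2 axis) summed over the sequences of each MEP enzyme in pathway order, with HDS and DXS again after the missed sequences are added, and then for the mevalonate route and the enzymes after it; bars are 95% counting intervals, red points lie above 1 and green points below. DXR at 2.11 and MCT at 6.25 lie above 1, while DXS, CMK, MDS and HDR, and HDS with the added sequences, lie below 1 with intervals that exclude it.

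The tissue labels were checked against marker lists. Light-harvesting antenna proteins, which bind leaf chlorophyll, had 6329 ovule and 18114 leaf reads, and among 24 sequences past the filter ovule was higher for 1, leaf for 12, and 11 differed by less than 2-fold. The backgrounds of all sequences are 27.3% (ovule) and 35.1% (leaf). MADS-box factors, which include regulators of ovule identity, had 1692 and 182 reads, with 11 of 24 sequences called each way, and their most-read sequence, GbMADS8, had 1012 and 1. The antenna list thus moved in the same direction as DXS, CMK, MDS, HDS and HDR, at a ratio of 0.324 (0.315 to 0.333), and its part in those results was not tested. In these bulk tissues, fewer plastid-rich cells and less transcript per cell cannot be told apart. The kind of reference sequence also moved with direction over the whole tables: of 3941 GenBank sequences past the filter 55.6% were higher in ovule and 17.6% in leaf, against 25.2% and 36.4% of 52827 assembled sequences. The identifiers of the assembled contigs end in "Gink_bil_leaf", so the contigs are labelled as leaf. Whether they came from leaf reads alone, and whether this moved the calls or the sequences with leaf reads alone, was not tested. Among members, the 6 GenBank sequences had a ratio of summed reads of 0.613 (0.456 to 0.819) and the 18 assembled ones 0.576 (0.510 to 0.651). Sequence by sequence the kinds differed more. The median log2 ratio was 0.08 over the 5 GenBank members past the filter, with 1 higher in ovule and 1 in leaf. It was -1.15 over the 15 assembled members past the filter, with 3 higher in ovule and 8 in leaf. Of the 121 leaf reads on GenBank members, 66 lay on the HDR entry of 1809 bases.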

How the data were processed

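The deposited tables give, per the file headers, a count of unique reads per sequence, the length, the percent of bases covered, and RPKM. Per the submitters' labels, RNA came from a modified CTAB extraction; the assembler or aligner is not given in the sources used here. RPKM equalled reads divided by length and library total in both tables. The tables were joined by identifier, and an absent sequence was given 0 reads. Members were found by text patterns on the BLAST description with the species removed. Members and lists were chosen with earlier results of these data known. The patterns for HDS and HDR were corrected after the descriptions had been read. All members are named, and from other lists the most-read sequence per step. With 1 library per tissue no test was run. A sequence whose RPKM reached 1 in either library was called where the log2 ratio was 1 or more, or -1 or less, with a pseudocount of 0.5. Ratios of reads per 1000000 have exact Clopper-Pearson 95% intervals, and a count of 0 was set at 3 reads for bounds. TMM factors came from edgeR 4.0.16; other steps used Python 3.11.15 and scipy 1.17.1. Calls and intervals were tested on simulated data with counting noise alone, for sequences with at least 50 expected ovule reads. Only 7 of the 24 members had 50 or more reads over both libraries, so the simulation does not cover the depth of most members. Alternatives changed the pseudocount, filter, scaling and members.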

Additional observations from a re-analysis of the deposited data

How the results depend on the processing

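Depth was the main limit: 9 of 24 members had fewer than 10 reads. No paired analysis was possible because there is 1 library per tissue. The 4 members higher in ovule became 2 with a pseudocount of 1, with at least 20 reads, with TMM scaling, with a counting interval that excludes 1, and among the 15 members with at least 10 reads, and 1 where RPKM had to reach 5. The 9 higher in leaf became 5 of the 14 members with at least 20 reads, and 5 of 20 with the counting interval. The pathway's ratio of 0.582 became 0.503 where RPKM had to reach 5, 0.840 without the most-read member and 0.390 with the 7 added sequences. The DXS ratio of 0.814 turned to 1.19 without Unigene6805, and the HDR ratio was 0.383 without CL6601.Contig1. Of all 56768 sequences past the filter, 15522 were called toward ovule and 19921 toward leaf. With the counting interval these counts were 9794 and 7703. With at least 20 reads they were 8223 and 5013 of 24296. Where RPKM had to reach 5 they were 10946 and 7141 of 30227. Each of these settings turned the larger count of all sequences toward ovule, while the members kept more calls toward leaf. The mevalonate ratio of 2.95 became 4.23 in TPM and 1.95 without the most-read sequence. Over all 16 later isoprenoid sequences the ratio was 1.16 and turned to 0.915 in TPM. This list includes geranyl diphosphate synthase, chlorophyll synthase and levopimaradiene synthase. For such sums, TPM adds up length-scaled values in place of reads, so short sequences weigh more. The rescaling alone shifts log2 ratios by -0.165, which would leave the 1.16 above 1. The turn to 0.915 thus comes with the change of weights. For the other reversals the cause was not tested. The alternatives for the mevalonate and later enzymes, the 7 added sequences, the share without CL6601.Contig1 and the limit of 10 reads were chosen after seeing the data. DXR, MCT, CMK, MDS and HDR kept their direction under each scaling.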

Other observations

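Among the DXS sequences without a ginkgo best hit, Unigene13638, Unigene13639 and Unigene13640 had 76.6%, 80.8% and 86.9% of their bases covered in ovule with 22, 26 and 80 reads. In leaf these shares were 41.4%, 37.3% and 81.1% with 13, 12 and 84 reads. Their best hits were proteins of *Ricinus communis*, *Amomum villosum* and *Selaginella moellendorffii*. Others of the group were covered more in leaf: Unigene36920 (55.7% in ovule and 81.7% in leaf), Unigene1903 (15.3% and 65%) and Unigene4238 (0% and 47.4%). Unigene48757 had 67.3% in ovule and 0% in leaf.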
